A study of Mus musculus with 14 samples.

Results

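Mpo, Elane, Prtn3, Ctsg and Ms4a3 are genes of the primary granule and of the promyelocyte, and they were chosen by name. They were found by symbol in the LSK and MyePro count tables, where they are 5 of 38926 entries, and by Ensembl ID in the LT-HSC count tables, where they are 5 of 39179. The study asked how loss of Dpy30, a core subunit of the complexes that methylate lysine 4 of histone H3, changes gene expression in blood-forming cells of the mouse. Its 8 RNA libraries cover 3 sorted populations: LSK cells, the lineage-negative, Sca-1+, Kit+ fraction that holds stem and multipotent cells; MyePro cells, a myeloid progenitor gate that the labels do not define; and long-term haematopoietic stem cells (LT-HSC).

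The KO cells were Mx1-Cre; Dpy30F/-, with a floxed allele over a null allele, and the control cells were Mx1-Cre; Dpy30F/+, with a floxed allele over a wild-type allele. Both genotypes thus carried the Cre, which is interferon-inducible and not restricted to blood cells, and both received the inducer pIpC at 7.5 µg per g of body weight, 4 times, beginning 7 weeks after transplantation. Each was transplanted as CD45.2+ donor marrow, together with wild-type CD45.1+ competitor marrow, into irradiated CD45.1+ hosts, so that the mice kept wild-type blood cells beside the donor cells. The sort took place 2 weeks after the final dose. The labels call the LT-HSC donor-derived; whether host and competitor cells were kept out of the LSK and MyePro sorts was not stated. LSK and MyePro had 1 library per genotype, each from the pooled marrow of 2 to 3 mice. LT-HSC had 2 libraries per genotype, from transplants 1 and 2, each from 7 to 9 pooled mice, and their RNA was amplified. With 1 library per group, no test and no replicate check was possible in LSK and MyePro, and the intervals given there cover counting error only.

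Primary or azurophil granules are the first granules that a developing neutrophil makes, at the promyelocyte stage, and they store enzymes that later kill microbes in the phagosome. Their genes are switched on in granulocyte and monocyte progenitors under C/EBP, PU.1, RUNX1 and MYB transcription factors, and are switched off again before the neutrophil matures. Mpo encodes myeloperoxidase, the haem enzyme that makes hypochlorous acid. Elane, Prtn3 and Ctsg encode the serine proteases neutrophil elastase, proteinase 3 and cathepsin G, and Ms4a3 encodes a membrane protein of granulocyte and monocyte progenitors that spans the membrane several times.

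In RefSeq's annotation of GRCm38.p6, Mpo (ENSMUSG00000009350) lies at chr11:87793784-87804412. Prtn3 (ENSMUSG00000057729) at chr10:79879667-79883174 and Elane (ENSMUSG00000020125) at chr10:79886312-79888216 are direct neighbours. Ctsg (ENSMUSG00000040314) lies at chr14:56099885-56102574 and Ms4a3 (ENSMUSG00000024681) at chr19:11629499-11640851. The 250 bases before each annotated start are shown because the 5 genes moved in different directions between genotypes. All 5 were found in RefSeq's promoters for GRCm38.p6, on the plus strand for Mpo, Elane and Prtn3 and on the minus strand for Ctsg and Ms4a3. Capitals mark GAGGAA, the letters searched for PU.1.
Mpo: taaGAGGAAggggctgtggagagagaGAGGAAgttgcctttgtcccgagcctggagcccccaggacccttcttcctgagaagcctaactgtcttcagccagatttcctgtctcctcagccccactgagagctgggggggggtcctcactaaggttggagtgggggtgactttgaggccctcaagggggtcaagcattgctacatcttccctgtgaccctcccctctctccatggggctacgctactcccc
Elane: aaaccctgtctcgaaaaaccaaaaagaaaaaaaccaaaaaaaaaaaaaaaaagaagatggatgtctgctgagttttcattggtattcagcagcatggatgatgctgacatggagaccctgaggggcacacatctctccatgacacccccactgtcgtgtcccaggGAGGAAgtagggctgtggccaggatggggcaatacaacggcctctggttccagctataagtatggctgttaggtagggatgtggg
Prtn3: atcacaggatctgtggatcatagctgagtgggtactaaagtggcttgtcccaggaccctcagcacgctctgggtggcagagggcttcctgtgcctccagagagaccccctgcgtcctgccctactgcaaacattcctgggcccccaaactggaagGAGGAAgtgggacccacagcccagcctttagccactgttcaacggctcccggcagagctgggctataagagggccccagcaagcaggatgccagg
Ctsg: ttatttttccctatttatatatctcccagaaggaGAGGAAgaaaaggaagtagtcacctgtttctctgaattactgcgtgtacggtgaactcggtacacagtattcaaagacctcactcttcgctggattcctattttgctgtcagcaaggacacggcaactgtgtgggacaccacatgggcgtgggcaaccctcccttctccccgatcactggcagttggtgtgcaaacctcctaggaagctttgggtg
Ms4a3: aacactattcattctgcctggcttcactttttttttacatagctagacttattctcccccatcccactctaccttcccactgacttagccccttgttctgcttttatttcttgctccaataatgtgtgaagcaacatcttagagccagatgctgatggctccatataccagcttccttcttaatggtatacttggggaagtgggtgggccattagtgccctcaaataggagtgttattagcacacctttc

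The windows are chr11:87793534-87793783 for Mpo, chr10:79886062-79886311 for Elane, chr10:79879417-79879666 for Prtn3, chr14:56102575-56102824 for Ctsg and chr19:11640852-11641101 for Ms4a3. In all, 4 sets of letters were searched on both strands, and no match overlapped another. GAGGAA stood 247 and 224 bases before the start in Mpo, 85 before it in Elane, 95 in Prtn3 and 216 in Ctsg, and it was not in the Ms4a3 window. It is in 23.3% of all 32851 mouse promoters of this length. AACNG, searched for MYB, was in the windows of Mpo, Elane, Prtn3 and Ctsg and in 74.2% of promoters. TGNGGT, searched for RUNX, was found in Ctsg alone, 140 and 79 bases before the start, and is in 40.1% of promoters. TTNNGNAA, searched for C/EBP, was found in Ms4a3 alone, 59 bases before the start, and is in 36.8% of promoters. Ms4a3 thus shared none of the 4 sets of letters with the other genes in this window. Other spellings of the sites of these factors were not searched.

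Libraries that were not amplified held between 6130320 (KO LSK) and 20820762 (control MyePro) gene counts, and LT-HSC libraries between 38060087 and 85499797. Dpy30 itself had 45.7 CPM (a library's counts scaled to its total of gene counts) in KO LSK and 76.7 in control LSK, and 51.1 in KO MyePro and 109 in control MyePro. In LT-HSC its TMM-normalized CPM, scaled by edgeR's trimmed mean of M-values, was 14.1 and 4.67 in the libraries labelled KO 1 and 2 and 12.9 and 8.43 in control 1 and 2, so that the library labelled KO 1 was not lower. Kit was read at 238 to 483 CPM in all 4 LSK and MyePro libraries. The 6 stem and multipotent cell markers summed to 258 CPM in KO LSK and 396 in control LSK, against 116 in KO MyePro and 32.5 in control MyePro, with Ly6a, which encodes Sca-1, at 67.0, 31.0, 11.4 and 4.56 CPM in the same libraries. The 5 lymphocyte markers stayed below 2 CPM in sum in these 4 libraries.

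Mpo, which gave the most counts of the 5 in every LSK and MyePro library, was lower in KO cells of both populations. It had 1074 CPM in KO LSK and 1992 CPM in control LSK, and 2089 CPM in KO MyePro and 6134 CPM in control MyePro. The KO level was 53.9% of the control level in LSK and 34.1% in MyePro. On the log2 scale the KO over control ratio was -0.89 (95% interval -0.93 to -0.85) in LSK and -1.55 (-1.57 to -1.53) in MyePro. By rank, Mpo held place 75 in KO LSK and 25 in control LSK, and place 30 in KO MyePro and 4 in control MyePro. In these bulk libraries, fewer cells of a type and less RNA per cell cannot be told apart, for Mpo and for each gene that follows.

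Prtn3 followed Mpo at a smaller difference. The protease gene had 292 CPM in KO LSK and 372 CPM in control LSK, and 575 CPM in KO MyePro and 1311 CPM in control MyePro. Its log2 ratio of KO over control was -0.35 (-0.43 to -0.27) in LSK and -1.19 (-1.23 to -1.15) in MyePro. Across the 4 libraries Prtn3 and Mpo were the closest pair of the 5, with a distance of 0.475 between their centred log2 CPM profiles, against 3.20 between Mpo and Ms4a3.

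Elane, whose start lies just downstream of Prtn3, did not move with it in LSK. It had 353 CPM in KO LSK and 221 CPM in control LSK, a log2 ratio of 0.68 (0.60 to 0.76). In MyePro it had 1192 CPM in KO cells and 1517 CPM in control cells, a log2 ratio of -0.35 (-0.38 to -0.32). Elane was therefore the only one of the 5 whose KO library was higher in one population and lower in the other. Counts of Elane per count of Prtn3 were 1.21 in KO LSK and 0.593 in control LSK, and 2.07 in KO MyePro and 1.16 in control MyePro, so that the 2 neighbouring genes were weighted toward Elane in KO cells of both populations.

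Ctsg, the gene of the third protease, was higher in KO cells of both populations. It had 698 CPM in KO LSK and 390 CPM in control LSK, a log2 ratio of 0.84 (0.78 to 0.90). In MyePro it had 1244 CPM in KO cells and 1049 CPM in control cells, a log2 ratio of 0.25 (0.22 to 0.28), the smallest KO difference in MyePro among the 5 genes.

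Ms4a3 had the largest log2 ratio of the 5 in LSK, and the next to Mpo in size in MyePro. It had 505 CPM in KO LSK and 94.0 CPM in control LSK, so that the KO level was 537% of the control level. In MyePro it had 1050 CPM in KO cells and 371 CPM in control cells, or 283% of the control level. The log2 ratios were 2.42 (2.33 to 2.52) and 1.50 (1.46 to 1.54). By rank Ms4a3 held place 239 in KO LSK and 2338 in control LSK, and the KO LSK level was above that of control MyePro.

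**Figure D1:**
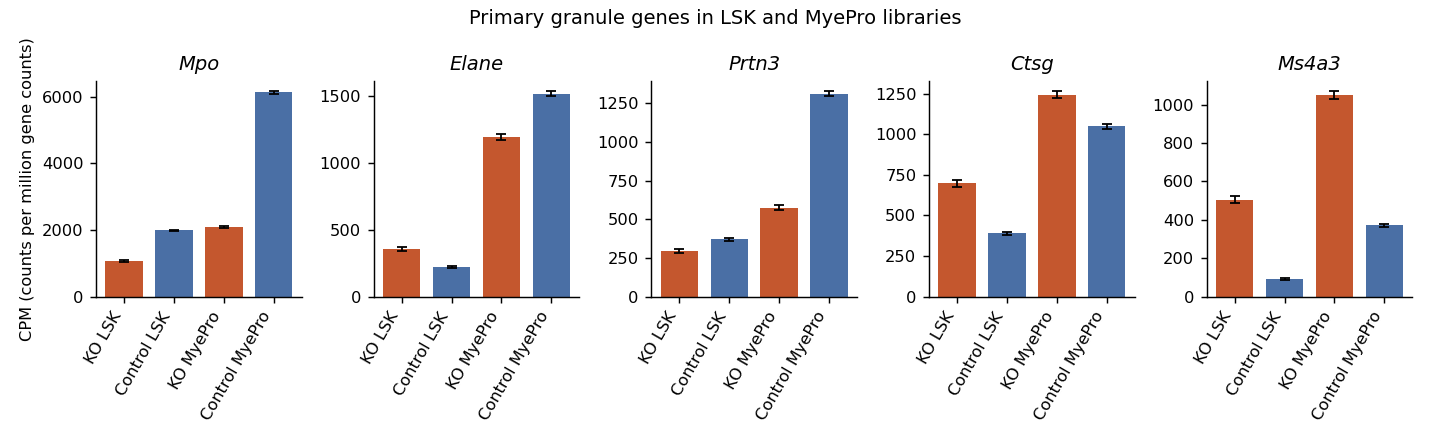
CPM of each gene (vertical axis, a separate scale per gene) in KO LSK, control LSK, KO MyePro and control MyePro. Each bar is 1 library, with a 95% Poisson interval for counting error; Mpo and Prtn3 are lower in both KO libraries, Ms4a3 and Ctsg are higher, and Elane is higher in KO LSK and lower in KO MyePro.

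A gene was called at a 2-fold difference if the libraries compared averaged 5 CPM or more, and all 5 reached that level in each comparison. In LSK, 1 of the 5 (Ms4a3) was called higher in KO, beside 6.26% of 10351 genes, and 0 were called lower, beside 4.42%. With TMM or RLE scaling in place of library totals, Mpo also passed 2-fold in LSK. In MyePro, 1 (Ms4a3) was called higher, beside 11.7% of 10208 genes, and 2 (Mpo and Prtn3) lower, beside 7.15%. The median log2 ratio of the 5 was 0.68 in LSK, against 0.09 over all genes, and -0.35 in MyePro, against -0.04. TMM scaling put the median of all genes in LSK at -0.06.

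All 5 genes were higher in MyePro than in LSK within each genotype, and by less in KO cells. Mpo was higher in MyePro by a log2 ratio of 0.96 in KO and 1.62 in control cells. Elane had the largest step, at 1.75 in KO and 2.78 in control cells. The step of Prtn3 was 0.98 in KO and 1.82 in control cells, that of Ctsg 0.83 and 1.43, and that of Ms4a3 1.06 and 1.98. In every case the control step was the larger one.

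In control cells all 5 passed 2-fold, beside 2.76% of 10009 genes, and none was called lower, beside 7.54%. In KO cells 2 (Elane and Ms4a3) passed 2-fold, beside 2.36% of 10409 genes, and 0 were lower, beside 2.25%. Mpo and Prtn3 lay just under that mark and passed it with TMM or RLE scaling or without mitochondrial and ribosomal RNA entries, which made 4 of 5. The median step was 0.98 in KO cells, against -0.13 over all genes, and 1.82 in control cells, against 0.02.

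The KO step minus the control step was -1.03 for Elane (-1.11 to -0.94), -0.92 for Ms4a3 (-1.02 to -0.82) and -0.84 for Prtn3 (-0.93 to -0.75). It was -0.66 for Mpo (-0.71 to -0.62) and -0.59 for Ctsg (-0.66 to -0.53). All 5 differences were thus below 0, and all are fixed by the same 4 libraries as the ratios above. Elane was the 1 gene of the 5 called lower, beside 2.09% of 10321 genes, and 0 were called higher, beside 7.04%; with TMM or RLE scaling, without mitochondrial and ribosomal RNA entries, or after thinning to the smallest library, Elane fell short of 2-fold. The median difference was -0.84, against -0.13 over all genes.

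**Figure D2:**
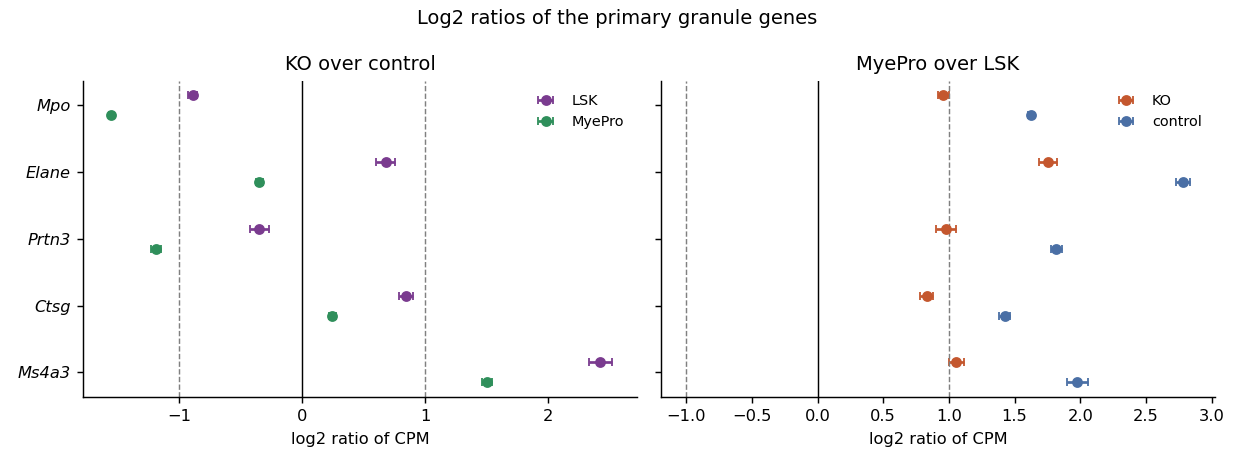
Log2 ratios of CPM (horizontal axis) for each gene, KO over control on the left and MyePro over LSK on the right, with 95% intervals for counting error and dashed lines at 2-fold. The genes spread to both sides of 0 on the left, between -1.55 for Mpo and 2.42 for Ms4a3, and all lie right of 0 on the right, with KO below control for each gene.

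Summed over the 5 genes, LSK had 2924 CPM in KO and 3069 CPM in control cells, so that the KO sum was 95.3% of the control sum. In MyePro the sum was 6150 CPM in KO and 10382 CPM in control cells, or 59.2% of the control sum. The 5 genes together took 0.615% of gene counts in KO MyePro and 1.04% in control MyePro. From LSK to MyePro the sum was 2.10-fold higher in KO cells and 3.38-fold higher in control cells.

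The sum hid a different make-up. Mpo gave 36.8% of the 5 genes' counts in KO LSK (exact binomial 95% interval 36.0 to 37.5) and 64.9% in control LSK (64.5 to 65.3). In MyePro its share was 34.0% in KO cells and 59.1% in control cells. The share of Mpo therefore differed less between LSK and MyePro of 1 genotype than between the genotypes of 1 population.

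Ms4a3 gave 17.3% of the counts in KO LSK and 3.06% in control LSK, and 17.1% in KO MyePro and 3.57% in control MyePro. Ctsg gave 23.9% in KO LSK and 12.7% in control LSK, and 20.2% in KO MyePro and 10.1% in control MyePro. Both shares were higher in KO cells of LSK and of MyePro. The share of Elane was 12.1% in KO LSK and 7.19% in control LSK, and 19.4% in KO MyePro and 14.6% in control MyePro, so that Elane differed with the population as well as the genotype. Among the LSK and MyePro libraries Prtn3 varied least, between 9.35% in KO MyePro and 12.6% in control MyePro. In LT-HSC its share ran from 2.61% in control 2 to 21.8% in control 1.

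Ratios of counts between genes of 1 library do not depend on how that library is scaled. There were 2.13 Mpo counts per Ms4a3 count in KO LSK and 21.2 in control LSK, and 1.99 in KO MyePro and 16.5 in control MyePro. Mpo counts per Ctsg count were 1.54 in KO LSK and 5.11 in control LSK, and 1.68 in KO MyePro and 5.85 in control MyePro. LT-HSC went the other way in both transplants. There, Mpo counts per Ms4a3 count were 24.9 and 9.02 in the libraries labelled KO 1 and 2, and 11.6 and 6.38 in control 1 and 2. Mpo counts per Ctsg count were 11.1 and 11.8 in KO 1 and 2, and 6.58 and 9.02 in control 1 and 2.

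**Figure D3:**
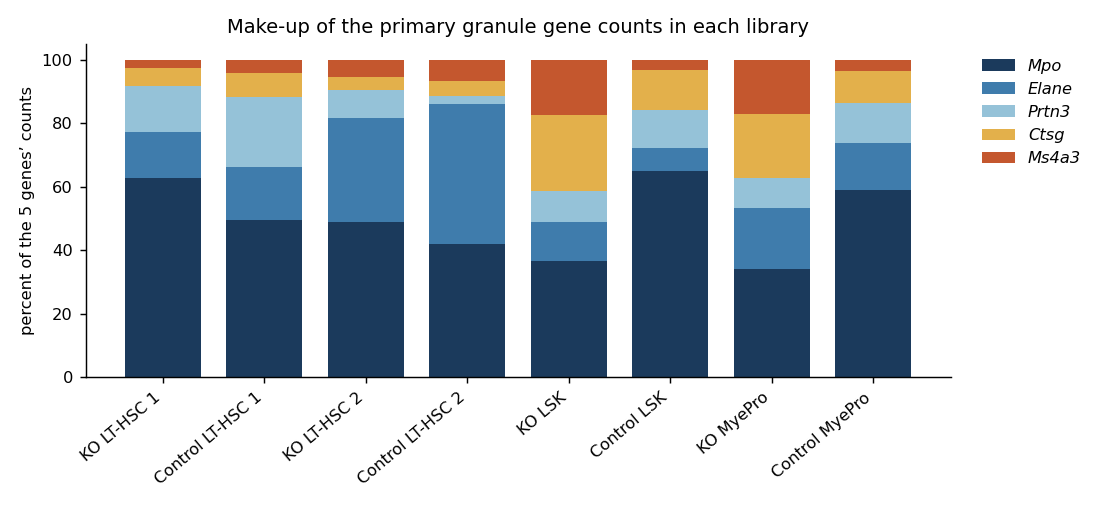
Percent of the 5 genes' summed counts given by each gene (vertical axis) in each of the 8 RNA libraries, 1 bar per library. In KO LSK and KO MyePro Mpo gives 36.8% and 34.0% and Ms4a3 17.3% and 17.1%, while in control LSK and control MyePro Mpo gives 64.9% and 59.1% and Ms4a3 3.06% and 3.57%. In LT-HSC Mpo gives 62.8% and 48.8% in KO 1 and 2, and 49.6% and 42.1% in control 1 and 2.

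In LT-HSC Mpo, Elane, Ctsg and Ms4a3 were high in transplant 2 and low in transplant 1 in both genotypes, and Prtn3 was not. Values here are TMM-normalized CPM, since the share of counts taken by other RNA differed between these amplified libraries. Mpo had 45.7 and 120 in the libraries labelled KO 1 and 2, and 33.4 and 128 in control 1 and 2. The means were 82.7 ± 52.4 in KO and 80.7 ± 66.9 in control (SD, n = 2 each). Both transplant 2 libraries were high and both transplant 1 libraries low, and the genotypes overlapped.

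Elane had 10.6 and 80.9 in the libraries labelled KO 1 and 2, and 11.3 and 134 in control 1 and 2. Its means were 45.7 ± 49.7 in KO and 72.4 ± 86.4 in control, again with both transplant 2 libraries high. Ms4a3 had 1.83 and 13.3 in KO 1 and 2, and 2.87 and 20.1 in control 1 and 2. Ms4a3, which was far higher in KO LSK and KO MyePro, was thus lower in the library labelled KO of each transplant here. Ctsg had 4.13 and 10.1 in KO 1 and 2, and 5.07 and 14.2 in control 1 and 2, with the same order of libraries as Ms4a3.

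Prtn3 did not share the split by transplant. It had 10.6 and 21.2 in the libraries labelled KO 1 and 2, and 14.7 and 7.93 in control 1 and 2. The highest and the lowest value were both from transplant 2, and the genotypes overlapped. The libraries labelled KO and the controls thus overlapped for all 5 genes; they did not for 27.7% of genes, with both KO above both controls for 13.8% and below for 13.9%.

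By edgeR's quasi-likelihood test with Benjamini-Hochberg adjustment, 0 of the 5 genes differed between KO and control LT-HSC, beside 2 of 12844 genes tested, or 0.0156%, both lower in KO. With the transplant as a block the same test called 0 of the 5, beside 1 gene higher (0.00779%) and 3 lower (0.0234%), or 0.0311%. The log2 fold changes of KO over control were 0.04 for Mpo (SE 0.662), -0.66 for Elane (SE 1.15), 0.49 for Prtn3 (SE 0.506), -0.43 for Ctsg (SE 0.679) and -0.60 for Ms4a3 (SE 1.08). Each adjusted p of edgeR's quasi-likelihood test was 0.999, and 294 genes (2.29%), none of the 5, had an unadjusted p under 0.05. DESeq2 called 5 genes higher and 9 lower, and limma-voom 1 and 0, again without any of the 5. The 2 genes called by edgeR were the Y-linked Kdm5d and Eif2s3y: Kdm5d had 0 counts in both libraries labelled KO, against 29.8 and 19.2 TMM-normalized CPM in the controls. Genotype and the sex of the donor cells thus cannot be told apart in LT-HSC. For Mpo the SE of 0.662 became 0.240 with the transplant as a block, at a log2 fold change of 0.18.

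The KO over control log2 ratio within transplants 1 and 2 was 0.45 and -0.10 for Mpo, -0.10 and -0.72 for Elane, -0.48 and 1.42 for Prtn3, -0.29 and -0.48 for Ctsg and -0.64 and -0.59 for Ms4a3. Elane, Ctsg and Ms4a3 kept their sign in both transplants, and Mpo and Prtn3 did not. With library totals in place of TMM, the plain CPM of Mpo was 26.5 in KO 1 and 40.2 in control 1, and 150.8 in KO 2 and 145.6 in control 2, which turned its direction round in both transplants.

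The mean difference of transplant 2 over transplant 1, on the log2 scale, was 3.24 for Elane, 2.81 for Ms4a3, 1.66 for Mpo, 1.38 for Ctsg and 0.06 for Prtn3, against a median of 0.00 over all genes. Thus 4 of the 5 were at least 2-fold higher in transplant 2, beside 8.82% of genes, and 0 at least 2-fold lower, beside 7.83%. The sum of the 10 later granule genes, which counts S100a8 and S100a9 with them, was also higher in transplant 2 of each genotype. It was 142 and 329 TMM-normalized CPM in the libraries labelled KO 1 and 2, and 73.1 and 722 in control 1 and 2. Of these genes, Camp and Ngp were not higher in KO 2 than in KO 1. The 5 mast cell and basophil markers summed to 0.685 and 52.9 in KO 1 and 2, and 5.42 and 63.1 in control 1 and 2. The 5 lymphocyte markers summed to 3.79 and 11.3 in KO 1 and 2, and 0.712 and 17.9 in control 1 and 2. The 6 stem and multipotent cell markers summed to 576 and 512 in KO 1 and 2, and 580 and 304 in control 1 and 2. The part of these in the levels of the 5 genes was not tested.

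**Figure D4:**
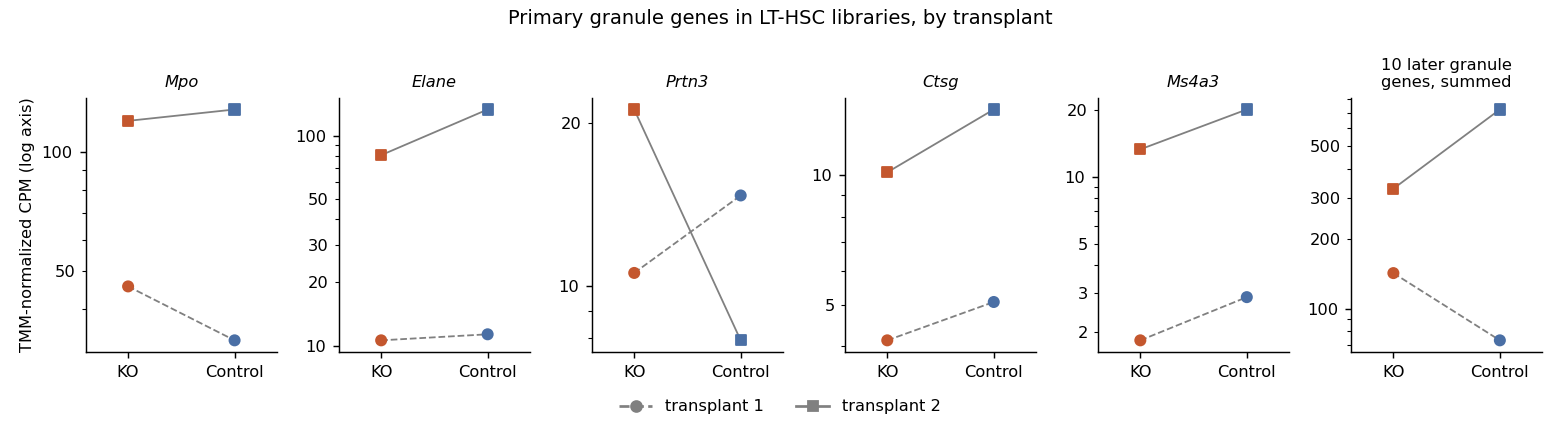
TMM-normalized CPM (vertical axis, logarithmic, a separate scale per panel) of each gene and of 10 later granule genes summed, in KO and control LT-HSC libraries; each symbol is 1 library, circles and dashed lines are transplant 1, squares and solid lines transplant 2. Transplant 2 lies above transplant 1 in both genotypes in every panel other than that of Prtn3, whose control 2 value of 7.93 is the lowest.

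Other listed contents of the primary granule were mostly higher in KO LSK and KO MyePro, and mostly lower in the libraries labelled KO of LT-HSC. Of the 11 listed, 9 were measured, and 4 were at least 2-fold higher in KO LSK and 5 in KO MyePro, with 0 lower in both. Over all genes, 6.26% were called higher and 4.42% lower in LSK, and 11.7% and 7.15% in MyePro. Ctsd, the lysosomal protease cathepsin D, had 2130 CPM in KO LSK and 1001 CPM in control LSK, and 2998 CPM in KO MyePro and 603 CPM in control MyePro. Lyz2, the gene of lysozyme, had 1005 CPM in KO LSK and 389 CPM in control LSK, and 1767 CPM in KO MyePro and 168 CPM in control MyePro. Cd63, a membrane protein of lysosomes and primary granules, was also higher in both KO libraries. Man2b1, a lysosomal mannosidase, was at 229 CPM in KO LSK and 242 CPM in control LSK, and at 342 CPM in KO MyePro and 188 CPM in control MyePro. Prss57, a serine protease of the primary granule named after its values were seen, was lower in KO cells of both populations, as Mpo was, without reaching 2-fold. It had 19.2 CPM in KO LSK and 28.2 CPM in control LSK, and 45.1 CPM in KO MyePro and 68.2 CPM in control MyePro. The list's median log2 ratio was 1.00 in LSK and 2.05 in MyePro. Its sum was 1.94-fold that of control in KO LSK and 4.04-fold in KO MyePro, where the sum of the 5 genes was lower. In LT-HSC, 8 of the 9 tested were lower in KO and 1 was higher, with a median log2 fold change of -0.58. The edgeR test called 0 of these 9, beside 0.0156% of 12844 genes.

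Genes that process, pack or inhibit the granule proteases differed less. Of 7 measured, 2 were called higher in KO LSK, beside 6.26% of all genes, and 1 in KO MyePro, beside 11.7%. In both, 0 were called lower, beside 4.42% and 7.15%, and the medians were 0.59 and 0.57. Calr and Canx, chaperones of the endoplasmic reticulum on which myeloperoxidase folds, went opposite ways. Calr had 3194 CPM in KO LSK and 2116 CPM in control LSK, and 4205 CPM in KO MyePro and 3041 CPM in control MyePro. Canx had 633 CPM in KO LSK and 837 CPM in control LSK, and 659 CPM in KO MyePro and 1220 CPM in control MyePro, and neither gene passed 2-fold. Srgn, the proteoglycan core that packs the proteases, was at 1433 CPM in KO LSK and 1018 CPM in control LSK. Serpinb1a, an inhibitor of elastase and cathepsin G, had 350 CPM in KO MyePro and 176 CPM in control MyePro. Ctsc, which activates the proteases by cutting their amino end and was named after its values were seen, had 92.5 CPM in KO LSK and 74.3 CPM in control LSK.

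Among 9 transcription factors of the granule programme, 2 were called higher and 1 lower in KO LSK, beside 6.26% and 4.42% of all genes. In KO MyePro 1 was called higher and 1 lower, beside 11.7% and 7.15%. Cebpa, needed to make granulocyte and monocyte progenitors, had 175 CPM in KO LSK and 68.7 CPM in control LSK, and 276 CPM in KO MyePro and 107 CPM in control MyePro. Irf8, which favours monocytes over granulocytes, was the 1 factor called lower in both and was named after its values were seen. It had 49.1 CPM in KO LSK and 102 CPM in control LSK, and 47.7 CPM in KO MyePro and 209 CPM in control MyePro. Myb, Cbfb and Spi1, which encodes PU.1, stayed within 2-fold in both. The medians were 0.35 in LSK and 0.26 in MyePro.

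Genes of the secondary and tertiary granules, made later in the lineage, were listed together with the calprotectin genes S100a8 and S100a9. Nearly all of these listed genes were near 0 in control LSK and control MyePro, which was not so in control LT-HSC. Their sum was 200 CPM in KO LSK and 12.9 CPM in control LSK, and 671 CPM in KO MyePro and 27.1 CPM in control MyePro. Lcn2, whose product binds bacterial iron carriers, had 102 CPM in KO LSK and 8.88 CPM in control LSK, and 311 CPM in KO MyePro and 12.9 CPM in control MyePro. S100a8, a subunit of calprotectin, had 65.1 CPM in KO LSK and 0 counts in control LSK. Of the 10 listed, 3 were measured in LSK and 5 in MyePro. Only Lcn2 in LSK, and Lcn2 and S100a8 in MyePro, reached 5 CPM in control cells; the others were measured through their KO level, and their number called is no support. Of 7 progenitor receptors, 3 were called higher in both populations, beside 6.26% of all genes in LSK and 11.7% in MyePro. In both, 0 were called lower, beside 4.42% and 7.15%, and the medians were 0.53 and 0.54. By direction alone, 6 of the 7 were higher and 1 lower in KO LSK, and 5 were higher and 2 lower in KO MyePro. Csf3r, the receptor of the granulocyte growth factor, had 197 CPM in KO LSK and 94.5 CPM in control LSK. Kit was lower in KO cells of both, at 423 CPM in KO LSK and 483 CPM in control LSK. In MyePro, Kit had 238 CPM in KO cells and 378 CPM in control cells.

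Markers of other cell types differed between the same libraries. The calls below stand beside 6.26% of all genes higher and 4.42% lower in LSK, and 11.7% and 7.15% in MyePro. Erythroid markers summed to 36.7 CPM in KO LSK and 582 CPM in control LSK, and 290 CPM in KO MyePro and 2499 CPM in control MyePro, with 4 of 4 measured called lower in LSK, and 4 of 5 lower and 1 higher in MyePro. Car1, an erythroid carbonic anhydrase, had 225 CPM in KO MyePro and 2124 CPM in control MyePro. Megakaryocyte markers summed to 638 CPM in KO LSK and 476 CPM in control LSK, and 1343 CPM in KO MyePro and 136 CPM in control MyePro, with 1 of 5 called higher in LSK and 5 of 5 in MyePro. Mast cell and basophil markers summed to 744 CPM in KO LSK and 302 CPM in control LSK, and 1126 CPM in KO MyePro and 495 CPM in control MyePro, with 3 of 5 called higher and 2 lower in LSK, and 2 of 5 higher and 1 lower in MyePro. Prss34, a basophil protease gene, was among those lower in both, at 7.50 CPM in KO LSK and 105.6 CPM in control LSK. Macrophage and dendritic cell markers summed to 112 CPM in KO LSK and 212 CPM in control LSK, and 142 CPM in KO MyePro and 30.4 CPM in control MyePro, and Siglech was at 0 in all but control LSK. In each population 3 of the 4 measured (C1qa, C1qb and Adgre1) were called higher in KO and 1 (H2-Aa) lower; H2-Aa, at 23.7 CPM in KO LSK and 181 CPM in control LSK, made the KO sum the lower one in LSK. The part of these differences in the levels of the 5 genes was not tested.

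**Figure D5:**
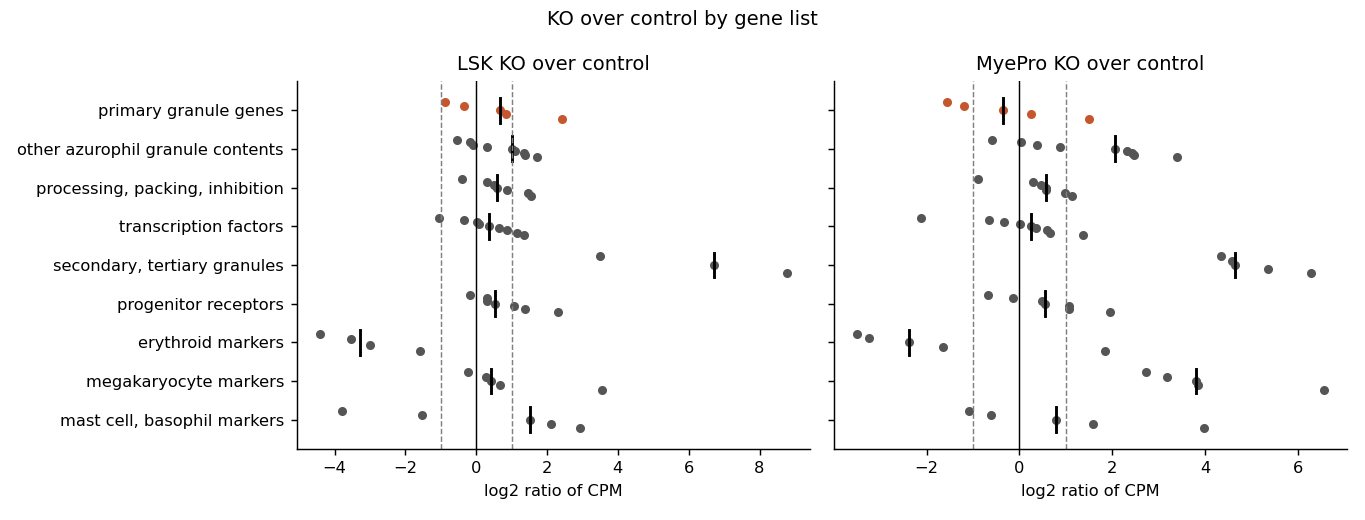
Log2 ratios of KO over control (horizontal axis) in LSK and MyePro for the measured genes of each list, 1 point per gene, with a bar at the list's median and dashed lines at 2-fold. The 5 primary granule genes lie on both sides of 0, other primary granule contents lie mostly right of it with medians of 1.00 and 2.05, and erythroid markers lie mostly left of it.

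Across the 4 LSK and MyePro libraries 9137 genes averaged 10 CPM or more. Those whose centred log2 CPM lay closest to the mean of the 5 were Igsf6, Clec12a, Mylk3, Oaf and Csf1r, at distances of 0.150, 0.183, 0.239, 0.325 and 0.354. The 5 genes themselves lay farther from their own mean, from 0.574 for Ctsg to 1.83 for Ms4a3. Csf1r, the receptor of the macrophage growth factor, had 42.2 CPM in KO LSK and 29.2 CPM in control LSK, and 75.8 CPM in KO MyePro and 83.8 CPM in control MyePro. The genes closest to each single member were named after their values were seen. Asns, the asparagine synthetase gene, was closest to Mpo at 0.151, and Ell2 to Prtn3 at 0.232. Far2, Fcgr3 and Hdc were closest to Ms4a3, at 0.299 to 0.406. Hdc, which makes histamine and marks basophils and mast cells, had 157 CPM in KO LSK and 40.8 CPM in control LSK, and 386 CPM in KO MyePro and 114 CPM in control MyePro. Mtus1 was closest to Elane at 0.239, and Rgcc to Ctsg at 0.173.

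The genes beside the 5 on the chromosome did not share 1 pattern. Plppr3, before Prtn3, had 0.489 CPM in KO LSK and 14.0 CPM in control LSK, and 9.97 CPM in KO MyePro and 101 CPM in control MyePro, the direction of Prtn3 and not that of Elane in LSK. Cfd, after Elane, stayed below 0.4 CPM in these 4 libraries. Mcpt8, a basophil protease gene before Ctsg, had 221 CPM in KO LSK and 76.9 CPM in control LSK, and 431 CPM in KO MyePro and 144 CPM in control MyePro, higher in KO as Ctsg was. Ms4a2, before Ms4a3, went the other way from it in LSK, with 3.75 CPM in KO and 11.1 CPM in control cells, while Oosp1, beyond Oosp2 on its other side, had 20.7 CPM in KO LSK and 1.34 CPM in control LSK. Lpo, the peroxidase gene after Mpo, stayed below 3 CPM. Tspoap1, before Mpo, had 16.5 CPM in KO LSK and 3.21 CPM in control LSK, and 19.8 CPM in KO MyePro and 6.44 CPM in control MyePro. Both Tspoap1 and Supt4a beyond it were higher in KO, the other way from Mpo.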

How the data were processed

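RNA of 8 libraries was analysed; the 6 ChIP samples were not analysed here. The authors deposited raw counts per gene, 1 table per library. The build was mm10, and the tools named were HTSeq 0.6.0, TopHat2, CASAVA 1.8.4, DESeq 3.0, Picard 1.126 and bedtools 2.17.0, per the submitters' processing notes. No annotation or strand setting is given there, so overlapping genes (the lncRNA Gm34064 overlaps the start of Mpo) may share reads. Per the labels' protocols, RNA had 2 rounds of polyA selection, and the Ovation kit amplified that of LT-HSC. Of the LT-HSC IDs, 37607 of 39179 were matched to a symbol. Entries that name no gene stayed out of library sizes: reads without a feature made up 2.40% to 6.25% of file totals in LSK and MyePro and 16.7% to 26.0% in LT-HSC, and reads aligned to several places 29.9% to 37.9% and 23.9% to 28.5%. An entry named DPY30-SPKIG, which the labels do not explain, was left out as well. It held 2426 counts in KO LSK, 4961 in control LSK, 11657 in KO MyePro and 1470 in control MyePro.

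For LSK and MyePro, CPM over library totals, log2 ratios with a prior count of 2 and exact binomial 95% intervals were computed; genes averaging 5 CPM or more were called at 2-fold. The LT-HSC comparison used edgeR 4.0.16 in R 4.3.3, with TMM factors, genes reaching 1 CPM in 2 or more of the 4 libraries, the quasi-likelihood test, two-sided, Benjamini-Hochberg adjusted p under 0.05; DESeq2 1.42.0 and limma 3.58.1 were alternatives. All libraries are pools of mice, and nothing says whether the LSK and MyePro pools share mice. Transplant numbers pair the LT-HSC libraries, per the labels; deviations of same-numbered libraries correlated at 0.292 over 12844 genes. The scripts were tested on simulated data with known changes.

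The members and lists were chosen with earlier results of these data known. Named were the 5 members; up to 4 genes of each list by highest mean CPM over the LSK and MyePro libraries (other primary granule contents; processing, packing and inhibition; transcription factors; secondary and tertiary granules; progenitor receptors); markers of stem, erythroid, megakaryocyte, mast cell and basophil, macrophage and dendritic, and lymphoid cells as sums; the 5 genes nearest in pattern; and direct chromosomal neighbours. Supt4a and Oosp1, each beyond a direct neighbour, were named as well. Pattern distance is Euclidean over log2 CPM centred on each gene's mean. Positions and promoters are from RefSeq, GRCm38.p6.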

Additional observations from a re-analysis of the deposited data

Results flagged for a closer look

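Elane had a log2 ratio of KO over control of 0.68 in LSK and -0.35 in MyePro, opposite directions in the 2 populations. With 1 library per group this difference was not tested.

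In LT-HSC, Mpo had a KO over control log2 ratio of 0.45 in transplant 1 and -0.10 in transplant 2, and Prtn3 had -0.48 in transplant 1 and 1.42 in transplant 2. Each value compares 1 library labelled KO with 1 control library, and neither difference between transplants was tested.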

How the results depend on the processing

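In LSK and MyePro, each of the 5 genes kept its direction under every alternative in every comparison, and the cause of the moves below was not tested. With TMM and RLE scaling, 1 member was called lower in KO LSK, with medians of 0.52 and 0.55; the MyePro median was -0.43 and -0.44, and -0.25 without mitochondrial and ribosomal RNA entries. For KO MyePro over LSK, TMM, RLE and leaving out those entries each called 4 members higher, at medians of 1.12, 1.10 and 1.05, and TMM called 154 genes lower in place of 234. The control medians were 1.88, 1.90 and 1.76. For the KO step minus the control step, 0 members were lower with TMM, RLE, without those entries or after thinning; without them the median was -0.71 and 117 genes were lower in place of 216. A minimum of 1 CPM, which admits more genes, called 1338 higher and 813 lower in LSK, 2276 higher in MyePro, 680 and 605 for KO MyePro over LSK, 1430 lower for control MyePro over LSK, and 1520 and 478 for the difference of steps.

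In LT-HSC no member passed the threshold in any of 13 settings, with adjusted p between 0.817 and 1.00. With the transplant as a replicate block, edgeR called 1 gene higher and 3 lower, and the members' log2 fold changes were 0.18 for Mpo, -0.42 for Elane, 0.47 for Prtn3, -0.39 for Ctsg and -0.62 for Ms4a3; the pairing changed no member's call. Genes called lower, 2 in the report, were 4 with library totals, 1 with ERCC size factors, 0 without mitochondrial genes, 9 with DESeq2 and 0 with limma-voom. Genes called higher were 1 without the low-count filter, 5 with DESeq2 and 1 with limma-voom. The members' median of -0.43 was -0.028 with ERCC factors and -0.26 with limma-voom. Library totals, which put the median of all genes at -0.35, turned Mpo to -0.067. Leaving out 1 library at a time, where the lone library is taken to vary like the other genotype's, gave 0 to 2 genes higher, 0 to 3 lower and members' medians from -1.22 to 1.32. Without KO 1, Elane was 0.16, Ctsg 0.08 and Ms4a3 0.21. Without KO 2, Mpo was -0.82 and Prtn3 -0.10, and Elane at -2.78 and Ms4a3 at -2.65 had an unadjusted p under 0.05. Without control 1, Mpo was -0.62 and Prtn3 1.01. Without control 2, Elane was 2.03, Ctsg 0.51 and Ms4a3 1.41.

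LT-HSC libraries held 38060087 gene counts or more, and counting error was small beside the spread between their pools. That error leaves out any added by amplification. The smallest library, KO LSK, held 6130320 gene counts. With 1 library per group, LSK and MyePro gave no spread to set counting error against.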
